A study of Mus musculus with 24 samples.

Results

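Early life stress (ELS) and deletion of Fkbp5 from forebrain glutamatergic neurons were combined in female mice, and hippocampal RNA sequencing was used to ask whether the transcriptional response to ELS differed between the genotypes. The quantity described here is the interaction, that is, the ELS response of Fkbp5 lox/lox mice minus the ELS response of Fkbp5 Nex mice, each response being ELS minus control on the log2 scale. A positive interaction therefore means a more positive ELS response in the lox/lox genotype. All 24 of the 24 mice entered it, 6 in each of 4 groups.

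All mice were adult females on a C57BL/6 background. The wild-type genotype, Fkbp5 lox/lox, carries floxed Fkbp5 alleles without Cre. In the Fkbp5 Nex genotype the same floxed alleles are recombined by Cre under the control of Nex (Neurod6), which is active in excitatory neurons of the developing forebrain, including hippocampal pyramidal cells, but largely spares dentate granule cells, interneurons and glia, so that the hippocampus of Nex mice keeps some Fkbp5. ELS dams and pups were housed with limited bedding and nesting material, while control litters had standard material, and which mice shared a litter is not given in the sources used here. Tissue was punched from the dorsal and ventral hippocampus of snap-frozen brains of mice that had been through behavioural testing, so each library is bulk RNA from mixed cell types, in which fewer cells of a type and less RNA per cell cannot be told apart.

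FKBP51, the product of Fkbp5, is an Hsp90 co-chaperone that sits in the unliganded glucocorticoid receptor complex and lowers the receptor's affinity for corticosterone. Activated glucocorticoid receptor in turn raises Fkbp5 transcription, which closes a short negative feedback loop inside the cell. In hippocampal pyramidal neurons, which express much of the forebrain's FKBP51, this loop sets how strongly stress hormone reaches its target genes, and the comparison asks whether the lasting trace of ELS in the transcriptome depends on it.

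Between 18347283 and 26555623 reads per mouse were assigned to genes. Of 46983 genes in the table, 16209 reached 10 counts in all mice of some group and were tested. Levels are given as CPM (reads of a gene per 1e6 reads) after TMM scaling. Differences are log2 values from the edgeR quasi-likelihood model with 4 group means and 5 surrogate variables, sources of variation estimated from the counts themselves. The groups accounted for a share of 0.033 to 0.23 of the variance of each surrogate variable. Surrogate variables also followed lists described below. The first correlated at 0.82 with choroid plexus, -0.77 with dentate granule neuron and 0.80 with oligodendrocyte levels. The second correlated at 0.68 with cholesterol synthesis and 0.54 with CA1 pyramidal neuron levels. The third correlated at 0.53 with thalamic and -0.59 with CA1 pyramidal neuron levels. List values with surrogate variables are thus adjusted for part of the lists' own levels. Replicate libraries of a group correlated at 0.964 to 0.992 across genes.

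No gene passed a false discovery rate of 0.02 for the interaction in edgeR (percent called 0), and the smallest adjusted p was 0.999. At an unadjusted p under 0.05, 606 genes were counted, which is 3.74% of those tested, 302 of them positive (1.86%) and 304 negative (1.88%). Of all tested genes, 50.1% had a positive interaction, or 52.8% without surrogate variables, and the list counts below are to be read beside these shares. DESeq2 on the same design also called 0 genes and counted 512 at an unadjusted p under 0.05. The separate ELS responses were no different in this respect, with 0 genes called in lox/lox mice (777 genes, or 4.79%, at an unadjusted p under 0.05) and 0 in Nex mice (420 genes, or 2.59%). DESeq2 called 1 gene for ELS in lox/lox mice, Bok, described with the CA3 markers (log2 0.37, DESeq2 adjusted p = 0.0138, edgeR adjusted p = 0.423). Differences are therefore described below as values with their errors, and no gene is said to have risen or fallen.

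The absence of a called gene does not show equal responses. Within the model with surrogate variables, the width of the intervals sets what could have been seen. Across the tested genes the median standard error of the interaction was 0.116 and the median half-width of its 95% interval was 0.240 on the log2 scale. Half-widths were 0.140 for genes above 100 CPM and 0.191 from 10 to 100 CPM, but 0.482 from 1 to 10 CPM and 0.848 below 1 CPM. For 14658 genes (90.4%) the whole interval in that model lay within a 2-fold difference between the ELS responses. These intervals take the surrogate variables as known and do not cover the choice of model. Estimates without surrogate variables lay outside them for some genes described below, among them Tcf7l2, Zic1, Prox1 and Npnt. For others, such as Hif3a, they lay inside. The 2-fold limit therefore holds only within that model.

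Several libraries stood apart from their groups, on principal components or in markers of neighbouring tissue. Nex control mouse 52 lay -3.84 SD from the mean on the second principal component (11.1% of the variance), Nex control mouse 12 was far out on components 1 (2.24 SD) and 4 (-2.79 SD), and lox/lox ELS mouse 8 lay at 2.08 SD on the second. Lox/lox control mice 44 (2.19 SD on component 3) and 74 (-2.30 SD on component 4) were also far out. The mean log2 CPM of thalamic marker genes ranged from 3.21 to 5.46 over the 24 mice, with its highest values in lox/lox ELS mice 8 (5.46) and 78 (5.30) and Nex ELS mouse 66 (5.04), and the choroid plexus marker Ttr ranged from 0.23 to 4235 CPM. Without mice 8, 12 and 52 the interaction counted 510 genes at an unadjusted p under 0.05 and again called 0. Mice 44 and 74 were left out only singly, which gave 703 and 805. Leaving out each of the 24 mice in turn gave 426 to 1055 genes, the highest count, 1055, being the one without Nex control mouse 32. Without surrogate variables the count was 328 (2.02%), and 226 of these were positive (1.39%) against 102 negative (0.629%).

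The targeted gene was read first. Fkbp5 stood at 47.7, 52 and 63.4 CPM in lox/lox control mice, 56.4, 58.8 and 62.2 in lox/lox ELS mice, 8.71, 12.5 and 26.5 in Nex control mice and 9.999, 12 and 23.1 in Nex ELS mice (lowest, median and highest of 6 mice, the order used for every gene below). Every Nex mouse was below every lox/lox mouse, so the genotype labels held in all 24 libraries, and within each genotype the ELS and control mice overlapped. The interaction of Fkbp5 itself was -0.044 (SE 0.21, 95% interval -0.49 to 0.40), with ELS responses of 0.20 in lox/lox and 0.25 in Nex mice. It was 0.18 without surrogate variables, so its sign was not determined. An exact two-sided permutation of the ELS labels within genotype, on log2 CPM without surrogate variables, gave p = 0.63 (adjusted over the 10 genes tested so, 0.63). Other annotated transcripts overlap Fkbp5, and since the counting is not stated to use strand their reads may be included. Neurod6, whose promoter drives the Cre and which marks pyramidal neurons, ranged over 159 to 332 CPM in lox/lox controls, 157 to 355 in lox/lox ELS mice, 92.7 to 205 in Nex controls and 51.6 to 174 in Nex ELS mice. All 4 ranges overlapped, and the interaction was 0.39 (SE 0.39, 95% interval -0.44 to 1.21).

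Receptors of corticosterone showed small and uncertain interactions. Nr3c1, the glucocorticoid receptor, stood at 75.8, 87.8 and 103 CPM in lox/lox control mice, 70.6, 87.1 and 99.5 in lox/lox ELS mice, 69.5, 78.8 and 99.4 in Nex control mice and 75.0, 83.8 and 97.5 in Nex ELS mice. These groups overlapped throughout, and its interaction was -0.13 (SE 0.10, 95% interval -0.33 to 0.083). Nr3c2, the mineralocorticoid receptor that binds corticosterone with high affinity in the hippocampus, stood at 184, 206 and 228 CPM in lox/lox control mice, 181, 189 and 242 in lox/lox ELS mice, 152, 172 and 215 in Nex control mice and 189.9, 196 and 217 in Nex ELS mice. Its interaction was -0.073 (SE 0.083, 95% interval -0.24 to 0.10) with surrogate variables and -0.21 without them, and the exact two-sided permutation test, which uses none, gave p = 0.0752 (adjusted 0.38). Over the 12 tested genes of corticosteroid and CRH signalling the median interaction was -0.062, against 0.000267 over all tested genes, with 5 positive and 0 at an unadjusted p under 0.05. Crh, which encodes corticotropin-releasing hormone, and its receptor Crhr1 had the smallest p-values of that list, at -0.48 (SE 0.30, 95% interval -1.1 to 0.15) and -0.30 (SE 0.22, 95% interval -0.74 to 0.15).

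Cofactors of the receptor were centred on 0. The 14 tested FKBP immunophilins had a median interaction of 0.0069, 8 positive, with 1 member at an unadjusted p under 0.05, Fkbp3, a nuclear FKBP, at -0.18 (SE 0.083, 95% interval -0.35 to -0.0081). Of all tested genes, 1.88% were at an unadjusted p under 0.05 in that direction. Fkbp4, which encodes FKBP52, the co-chaperone that competes with FKBP51 in the receptor complex, was at -0.10 (SE 0.084, 95% interval -0.27 to 0.073). Steroid receptor chaperones (18 genes) had a median of -0.0036, 9 of them positive, none at an unadjusted p under 0.05, and no member was beyond 0.18 or -0.077. Among them the Hsp110 gene Hsph1 was at 0.10 (SE 0.065, 95% interval -0.038 to 0.23) and the Hsp40 gene Dnajb1 at -0.077 (SE 0.060, 95% interval -0.20 to 0.048).

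Genes that glucocorticoids induce divided into 12 positive and 9 negative of 21 tested, with a median of 0.0090, or 0.12 without surrogate variables. Here 1 member was at an unadjusted p under 0.05 in the positive direction, where 1.86% of all tested genes were. That member, Hif3a, encodes a subunit of the hypoxia-inducible factors and had opposite ELS responses, 0.42 in lox/lox and -0.53 in Nex mice. Plin4, which encodes a lipid droplet coat protein, was next, at 0.78 (SE 0.41, 95% interval -0.073 to 1.62), with ELS responses of 0.38 and -0.39. Tcf4, an E protein transcription factor that the study followed up, stood at 459, 543 and 594 CPM in lox/lox control mice, 491, 506 and 517 in lox/lox ELS mice, 440.0, 506 and 609.9 in Nex control mice and 478, 527 and 549 in Nex ELS mice. The groups overlapped throughout, and its interaction was -0.029 (SE 0.062, 95% interval -0.16 to 0.10). In the exact two-sided permutation test, on log2 CPM without surrogate variables, the interaction of Tcf4 was -0.10, with p = 0.299 (adjusted 0.429). Of 13 tested E proteins, Id proteins and neuronal bHLH factors, 6 were positive (median -0.0095). Bhlhe22, a bHLH repressor of excitatory neurons, was the 1 member at an unadjusted p under 0.05, at -0.24 (SE 0.10, 95% interval -0.45 to -0.022). Of all tested genes, 1.88% were at an unadjusted p under 0.05 in that direction.

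**Figure D1:**
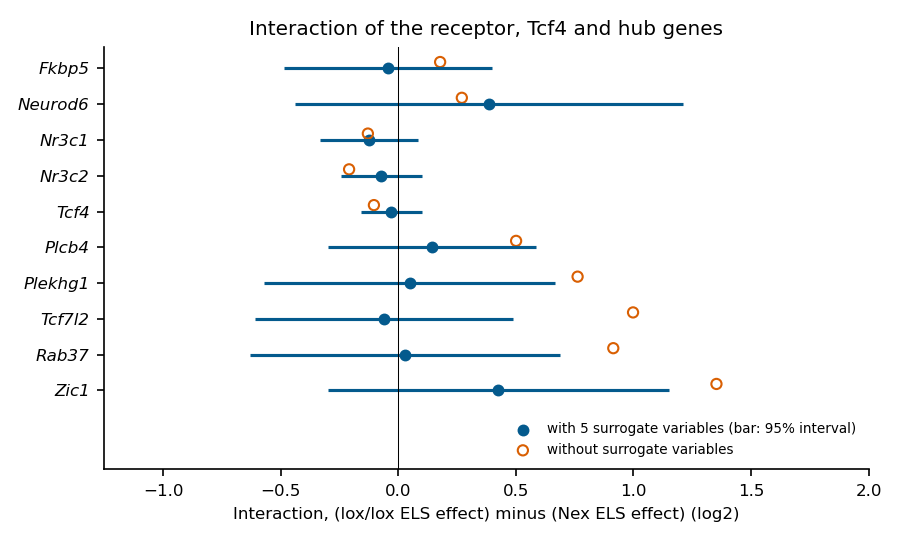
Interaction (log2, x axis) of Fkbp5, Neurod6, the corticosteroid receptors, Tcf4 and the 5 hub genes of the study, with filled points and bars for the estimate and 95% interval with 5 surrogate variables and open points for the estimate without them. All 10 intervals include 0, and Tcf7l2, Rab37 and Zic1 have open points near or above 1 (0.998, 0.91 and 1.35).

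The ELS responses of the genotypes, which share no mouse but do share the surrogate variables, the dispersions and the scaling of the model, had almost no relation across genes. Over the 16209 tested genes, Pearson's r between them was 0.055 and Spearman's rank coefficient 0.028, and 51.0% of genes had the same sign in both. Genes are not independent replicates, so these values are a description, and the spread over mice was wide, with r between -0.067 and 0.144 and same-sign shares between 45.4% and 55.8% over 24 refits that each lacked 1 mouse. A jackknife over mice put the standard error of r at 0.200 and that of the share at 10.6 percentage points. Without surrogate variables r was 0.141 and 54.0% of genes had the same sign, and with scores of regional markers in their place r was -0.072 and the share 50.2%. With 1, 2 and 3 surrogate variables in place of 5, r was 0.122, 0.0958 and 0.145, and 55.3%, 55.9% and 55.8% of genes had the same sign. Thus neither agreement nor opposition of the responses was resolved at this sample size. The spread of the responses was alike, with SDs over genes of 0.154 in lox/lox and 0.145 in Nex mice.

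**Figure D2:**
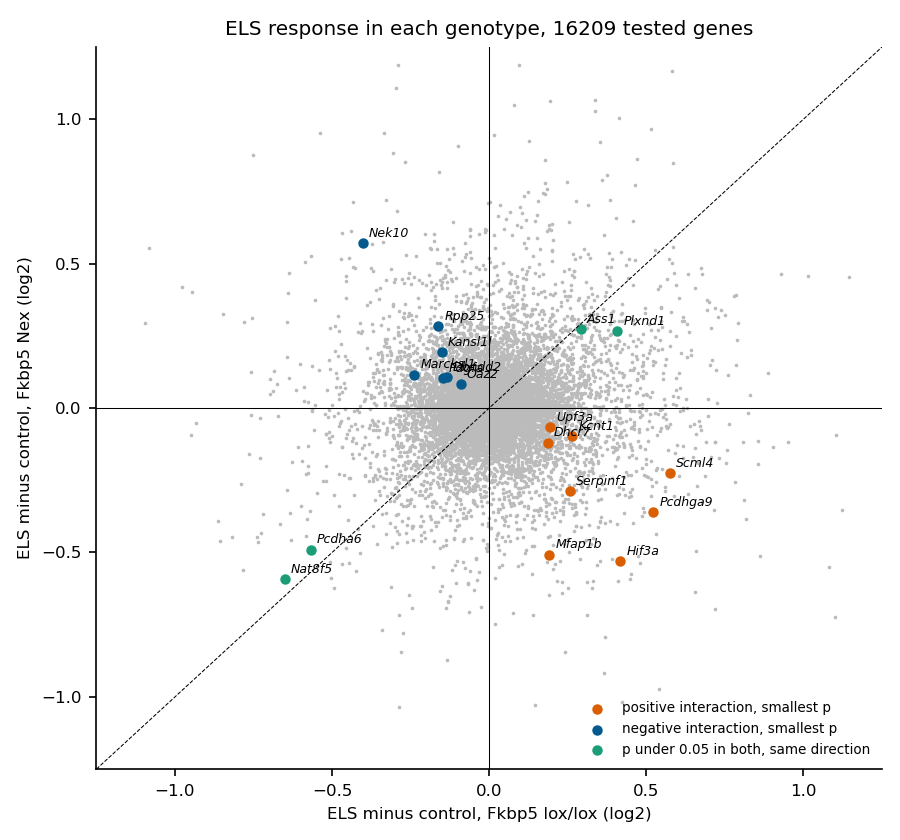
ELS log2 differences of 16203 tested genes in Fkbp5 lox/lox (x axis) and Fkbp5 Nex mice (y axis), each against its own controls, with 6 genes beyond the axis limits not drawn and a dashed line at equality. The cloud shows hardly any slope (r = 0.055), the leading positive genes (orange) lie below the dashed line, the leading negative genes (blue) above it and the 4 leading genes of like sign (green) near it.

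How often genes with small p-values in 1 genotype shared the sign of the other genotype depended on the number of surrogate variables. With 5, of the 777 genes at an unadjusted p under 0.05 for ELS in lox/lox mice, 400 (51.5%) had the same sign in Nex mice, and of the 420 in Nex mice, 216 (51.4%) had the same sign in lox/lox mice, near the 51.0% of all genes. Without surrogate variables these shares were 60.8% and 62.2%, against 54.0% of all genes. With 1 to 3 of them the shares were 64.4% to 67.1% for the lox/lox genes and 62.8% to 64.7% for the Nex genes, above the 55.3% to 55.9% of all genes. In the model with 5, 23 genes were at an unadjusted p under 0.05 in both, 9 with the same sign and 14 with opposite signs, and without surrogate variables the count was 22, split 15 to 7. With 1, 2 and 3 surrogate variables the same-sign genes outnumbered the opposite ones by 32 to 6, 40 to 9 and 52 to 11, so the majority of opposite signs was not found in these models. Ranges of ELS and control mice did not overlap for 15 genes in lox/lox mice (0.0925% of those tested) and for 11 genes in Nex mice (0.0679%), and no gene did so in both.

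Among the 14 genes of opposite sign in the model with 5 surrogate variables, the 4 that led by the smaller of their 2 responses were Hif3a, Nek10, Spata9 and Car14. Spata9, a gene named for its expression in spermatogenesis, stood at 1.68, 1.90 and 2.26 CPM in lox/lox control mice, 2.21, 2.50 and 3.28 in lox/lox ELS mice, 2.02, 2.50 and 2.85 in Nex control mice and 1.55, 1.92 and 2.29 in Nex ELS mice. Its ELS responses were 0.36 in lox/lox and -0.38 in Nex mice, with overlapping ranges, and the interaction of 0.73 (SE 0.22, 95% interval 0.29 to 1.18) was 0.77 without surrogate variables. Car14, a membrane-bound carbonic anhydrase, had responses of -0.26 and 0.27 and an interaction of -0.53 (SE 0.17, 95% interval -0.88 to -0.19), which was -0.23 without surrogate variables. Nek10, a kinase of the NIMA-related family, had responses of -0.40 and 0.57, and its interaction of -0.97 was -0.24 without them.

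Of the same sign in both genotypes were Nat8f5, Pcdha6, Ass1 and Plxnd1. Ass1, the urea cycle and arginine-recycling enzyme argininosuccinate synthase, stood at 10.7, 11.5 and 13.5 CPM in lox/lox control mice, 10.5, 13.1 and 16.4 in lox/lox ELS mice, 8.09, 11.6 and 18.9 in Nex control mice and 11, 14.0 and 14.9 in Nex ELS mice. The median of ELS mice was above that of controls in both genotypes, but the ranges overlapped and the highest of the Nex mice was control mouse 12, with responses of 0.29 and 0.27 and an interaction of 0.016 (SE 0.17, 95% interval -0.33 to 0.36). Plxnd1, a semaphorin receptor of vessels and axons, had responses of 0.41 and 0.27. Pcdha6, 1 of the clustered protocadherins whose transcripts share their 3' exons with the other members of the cluster, had responses of -0.57 and -0.49, and Nat8f5, an N-acetyltransferase 8 family member with near-identical neighbours, -0.65 and -0.59. For both, the assignment of reads between copies is uncertain.

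Genes were then ranked by the unadjusted p of the interaction, and 8 positive and 7 negative leaders are described. Mfap1b, a component of the spliceosome, had the smallest p of the positive genes and stood at 17.7, 21.0 and 21.7 CPM in lox/lox control mice, 18.3, 22.3 and 30.3 in lox/lox ELS mice, 20.7, 28.1 and 32.9 in Nex control mice and 18, 19.4 and 21.5 in Nex ELS mice. The Nex ELS mice were lowest and the Nex control mice highest by their medians, with overlap in every comparison. Its interaction was 0.70 (SE 0.16, 95% interval 0.36 to 1.03) with and 0.72 without surrogate variables, made of 0.19 in lox/lox and -0.51 in Nex mice, but a near-identical paralogue, Mfap1a, makes the assignment of its reads uncertain.

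Scml4, a gene of the polycomb-related Scm family, stood at 6.30, 8.37 and 8.93 CPM in lox/lox control mice, 8.80, 10.7 and 13.3 in lox/lox ELS mice, 9.28, 10.7 and 13.4 in Nex control mice and 7.32, 8.67 and 12.1 in Nex ELS mice. ELS and control mice overlapped narrowly in lox/lox and widely in Nex mice, and the interaction of 0.80 (SE 0.19, 95% interval 0.41 to 1.19) was made of 0.57 in lox/lox and -0.23 in Nex mice, and was 0.68 without surrogate variables. Upf3a, a factor of nonsense-mediated mRNA decay, stood at 34, 36.0 and 38.2 CPM in lox/lox control mice, 36.3, 40.5 and 43.7 in lox/lox ELS mice, 36.9, 38.2 and 45 in Nex control mice and 33.0, 35.6 and 41.0 in Nex ELS mice. Its ELS and control ranges overlapped in both genotypes. The interaction was 0.26 (SE 0.068, 95% interval 0.12 to 0.40) and lay between 0.21 and 0.29 over the 24 refits that each left out 1 mouse.

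Serpinf1, which encodes the secreted neurotrophic factor PEDF, stood at 8.63, 11.4 and 14.0 CPM in lox/lox control mice, 8.97, 13.7 and 17.2 in lox/lox ELS mice, 13.4, 15.0 and 23.1 in Nex control mice and 8.58, 10.4 and 14.5 in Nex ELS mice. Its interaction was 0.54 (SE 0.15, 95% interval 0.23 to 0.86), with ELS responses of 0.26 and -0.29, and was 0.83 without surrogate variables. Markers of meningeal fibroblasts, cells that also make secreted matrix proteins, leaned the same way, with 7 of 10 positive and a median of 0.35 (0.70 without surrogate variables), and their part in the Serpinf1 value was not tested. Hif3a, already met among the opposed genes, stood at 2.16, 2.48 and 4.84 CPM in lox/lox control mice, 2.74, 3.61 and 5.24 in lox/lox ELS mice, 2.79, 3.87 and 5.27 in Nex control mice and 2.36, 2.94 and 4.15 in Nex ELS mice. The median of ELS mice was above that of controls in lox/lox and below it in Nex mice, within overlapping ranges, and the interaction was 0.95 (SE 0.26, 95% interval 0.42 to 1.48) with and 0.72 without surrogate variables.

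Other positive leaders were Pcdhga9, Dhcr7 and Kcnt1. Pcdhga9, a gamma protocadherin that shares 3' exons with its cluster, was at 0.88 (SE 0.26, 95% interval 0.35 to 1.41) and at 0.63 without surrogate variables, and Dhcr7 is described with the cholesterol genes. Kcnt1, a sodium-activated potassium channel, stood at 30.3, 41.3 and 66.7 CPM in lox/lox control mice, 33.6, 47.8 and 73.2 in lox/lox ELS mice, 38.3, 52.1 and 64.4 in Nex control mice and 37.8, 55.2 and 75.8 in Nex ELS mice. Its interaction of 0.36 (SE 0.10, 95% interval 0.15 to 0.57) was 0.11 without surrogate variables.

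Of the 7 negative leaders, Kansl1l and Rpp25 were at an unadjusted p under 0.05 in either model. Kansl1l, a paralogue of a subunit of the NSL histone acetyltransferase complex, stood at 13.6, 15.1 and 17.3 CPM in lox/lox control mice, 12.6, 13.8 and 17.3 in lox/lox ELS mice, 9.51, 12.2 and 15.1 in Nex control mice and 13.3, 14.3 and 15.2 in Nex ELS mice. Its ELS responses were -0.15 in lox/lox and 0.19 in Nex mice, and the interaction was -0.34 (SE 0.10, 95% interval -0.55 to -0.14) with and -0.29 without surrogate variables. Rpp25, a subunit of RNase P and RNase MRP, stood at 8.01, 8.65 and 11.7 CPM in lox/lox control mice, 7.13, 8.18 and 9.83 in lox/lox ELS mice, 6.32, 8.77 and 11.7 in Nex control mice and 9.74, 10.2 and 10.9 in Nex ELS mice. Here too the ranges overlapped, and the interaction of -0.45 (SE 0.13, 95% interval -0.72 to -0.17) stayed at -0.39 without them.

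The other 5 were not at an unadjusted p under 0.05 without surrogate variables. Marcksl1, a MARCKS-like actin and calmodulin binding protein of growing neurites, went from -0.35 (SE 0.10, 95% interval -0.57 to -0.14) to 0.13. Pdgfa, a platelet-derived growth factor ligand of oligodendrocyte precursors, went from -0.25 to -0.072, Oaz2, an ornithine decarboxylase antizyme, from -0.17 to -0.10, Dbndd2 from -0.24 to -0.0025 and Nek10 as given above. Over all genes, 146 of the 606 at an unadjusted p under 0.05 with surrogate variables (24.1%) were also among the 328 without them (44.5% of those), all 146 with the same sign, and of the 15 leaders 9 were.

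**Figure D3:**
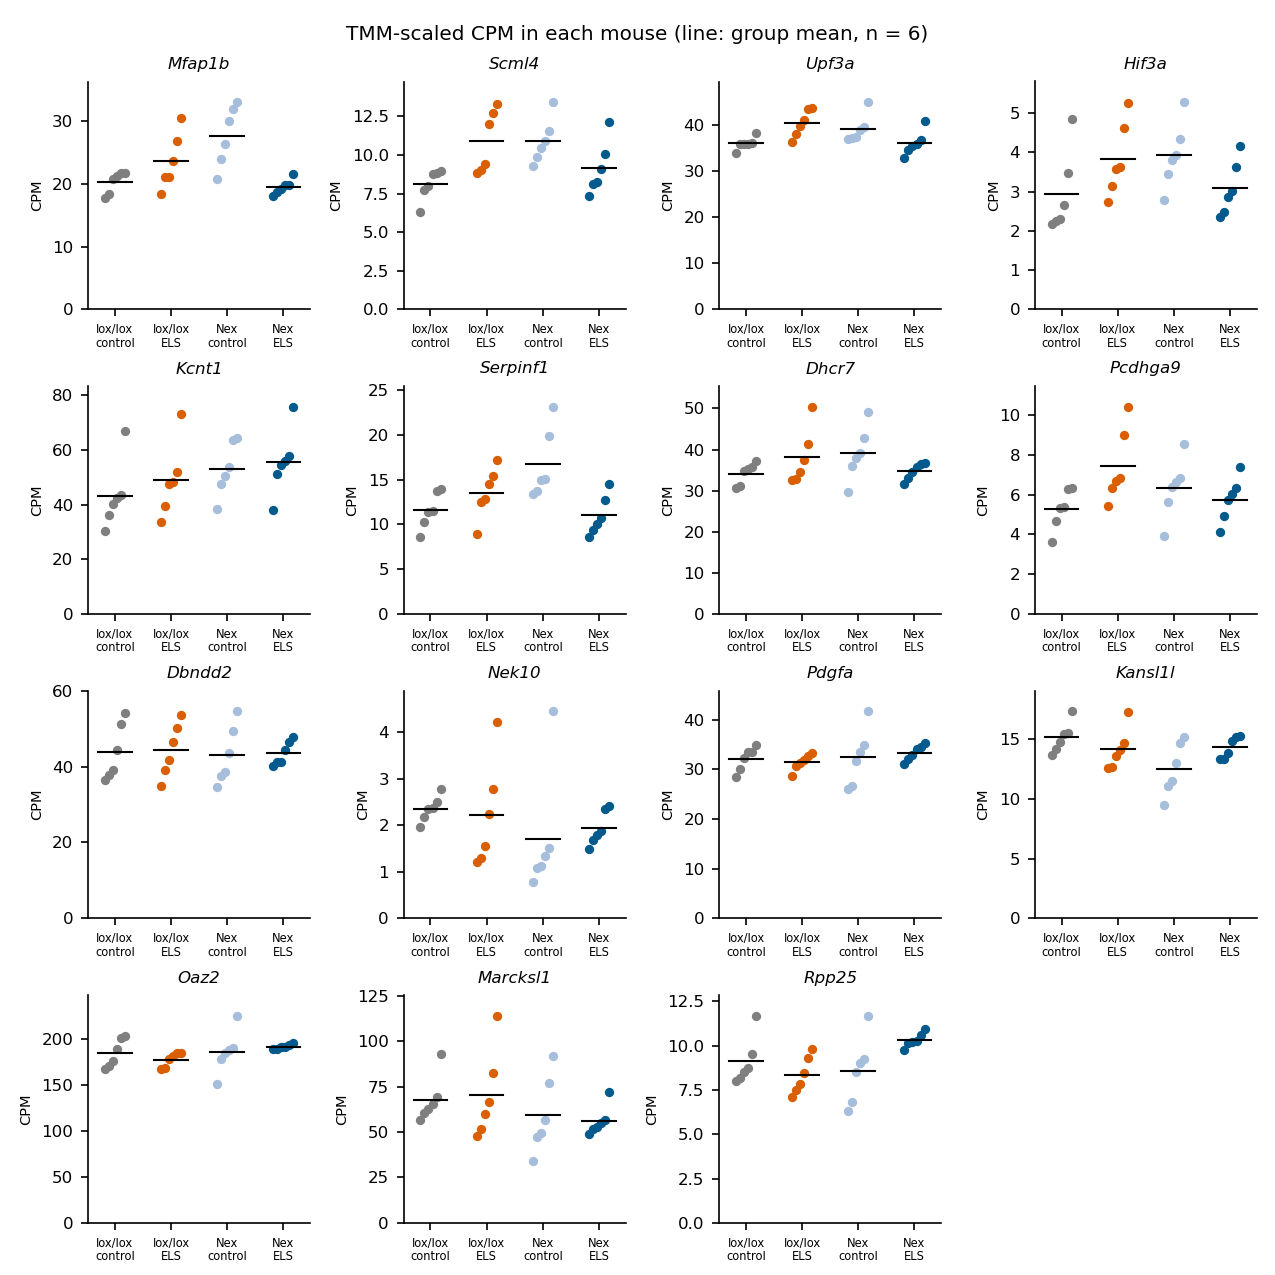
CPM in each mouse (points, y axis from 0) of 15 leading genes of the interaction in the 4 groups of 6, with a line at the group mean. For Hif3a the mean of ELS mice is above that of controls in lox/lox and below it in Nex mice, and in no panel are the ranges of control and ELS mice of a genotype separate.

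Cholesterol synthesis genes leaned to the positive side. The pathway builds cholesterol from acetyl-CoA through HMG-CoA, farnesyl diphosphate, squalene and lanosterol, and in the adult brain it supplies myelin and neuronal membranes from within, since plasma cholesterol does not cross the blood-brain barrier. The list of 22 tested genes also holds regulators of the pathway, Srebf2 and Insig1. Of the 22, 21 were positive against 50.1% of all tested genes, and 5 were at an unadjusted p under 0.05 in the positive direction against 1.86% of all tested genes. Like the other lists, this one was chosen with earlier results of these data known. Its genes are not independent replicates, so these counts are a description only. The median interaction was 0.17, made of a median ELS response of 0.16 in lox/lox and -0.044 in Nex mice, and without surrogate variables it was 0.24.

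Dhcr7, which catalyses the last step of cholesterol synthesis, stood at 30.6, 35 and 37.2 CPM in lox/lox control mice, 32.7, 36.0 and 50.4 in lox/lox ELS mice, 29.6, 38.5 and 49.2 in Nex control mice and 31.6, 35.2 and 36.6 in Nex ELS mice. Its interaction was 0.31 (SE 0.086, 95% interval 0.13 to 0.48), with ELS responses of 0.19 and -0.12. Sqle, squalene epoxidase, stood at 63.9, 69.5 and 80.4 CPM in lox/lox control mice, 57.3, 73.5 and 107 in lox/lox ELS mice, 62.8, 77.2 and 119 in Nex control mice and 61.7, 73.9 and 76.6 in Nex ELS mice. The ranges of ELS and control mice overlapped for both genes and in both genotypes, and the interaction of Sqle was 0.32 (SE 0.11, 95% interval 0.086 to 0.55). Fdft1, squalene synthase, was at 0.27 (SE 0.10, 95% interval 0.070 to 0.48), and Nsdhl, a sterol dehydrogenase of the demethylation of lanosterol, at 0.29 (SE 0.13, 95% interval 0.012 to 0.57).

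Fdps, farnesyl diphosphate synthase, had the value farthest from 0 in the list, 1.20 (SE 0.41, 95% interval 0.34 to 2.06), but between only 12 and 54 reads per mouse. It has processed pseudogenes that can take its reads, so the value is uncertain. Ebp, the sterol isomerase, was the 1 gene below 0, at -0.19 (SE 0.13, 95% interval -0.46 to 0.090). Hmgcs1, the HMG-CoA synthase at the start of the pathway, was at 0.20 (SE 0.12, 95% interval -0.043 to 0.45).

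The mean log2 CPM over the 22 genes was 5.16, 5.17 and 5.34 in lox/lox controls (lowest, median, highest) and 5.12, 5.25 and 5.67 in lox/lox ELS mice. In Nex controls it was 5.25, 5.31 and 5.91, and in Nex ELS mice 5.10, 5.29 and 5.33. All groups overlapped, and 3 mice made the upper end, namely Nex control mouse 52 (5.91) and lox/lox ELS mice 56 (5.67) and 72 (5.51), while Nex ELS mouse 60 was lowest (5.10).

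Mouse 52, which also stood apart on the second principal component, was a Nex control. Without it the median interaction was 0.18 with surrogate variables (21 of 22 positive) but 0.11 without them (19 of 22 positive, 1 gene at an unadjusted p under 0.05). Over the 24 refits that left out 1 mouse the median ran from 0.10 to 0.21. The median of 16 oligodendrocyte lineage genes, which mark cells that use much of the brain's cholesterol, was -0.10 (6 positive). Without surrogate variables it was 0.11, with 15 positive. In that model both lists leaned to the positive side, the cholesterol list with 22 of 22 positive, where 52.8% of all tested genes were. The part of oligodendrocyte content in the cholesterol values was not tested.

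**Figure D4:**
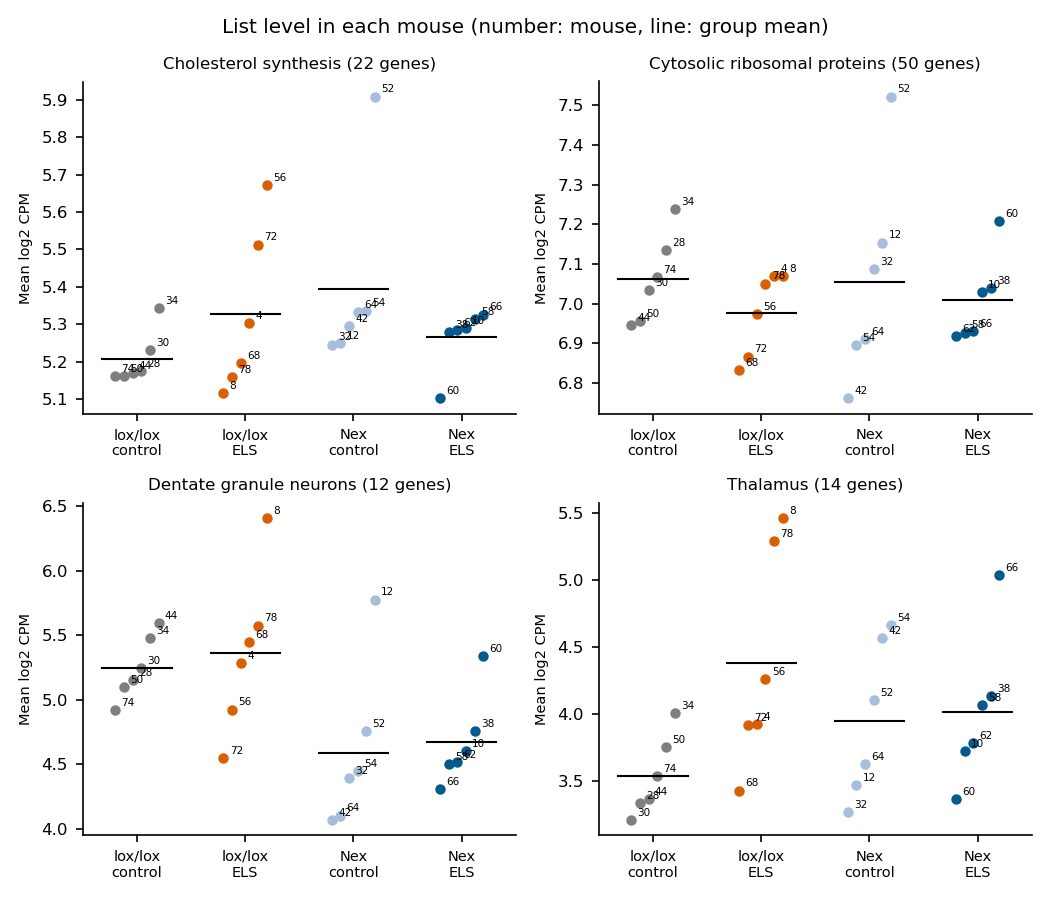
Mean log2 CPM (y axis) of cholesterol synthesis, ribosomal protein, dentate granule neuron and thalamic genes in each of the 24 mice, labelled by mouse number, with a line at the group mean. For cholesterol synthesis Nex control mouse 52 (5.91) and lox/lox ELS mice 56 (5.67) and 72 (5.51) lie above all other mice.

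Transcription of the enzymes in the list is governed by SREBP factors, which bind sterol regulatory elements beside CCAAT boxes bound by NF-Y. Stretches upstream of the start sites of 3 of the genes are shown as examples, and how many members carry each motif is given below. The stretches are from RefSeq promoter windows of GRCm38.p6, each lying upstream of the annotated start, written 5' to 3' on the strand of the gene, with capitals marking a sterol regulatory element (TCACNCCAC) or a CCAAT box on either strand (ATTGG on the reverse).
Hmgcs1, chr13:119690201-119690350, plus strand: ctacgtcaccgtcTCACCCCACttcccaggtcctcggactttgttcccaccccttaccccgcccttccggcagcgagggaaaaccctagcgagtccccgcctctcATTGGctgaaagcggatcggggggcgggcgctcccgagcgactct
Nsdhl, chrX:72918412-72918520, plus strand: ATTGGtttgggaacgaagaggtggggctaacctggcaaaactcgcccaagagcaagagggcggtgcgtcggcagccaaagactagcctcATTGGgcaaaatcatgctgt
Sc5d, chr9:42264301-42264450, minus strand: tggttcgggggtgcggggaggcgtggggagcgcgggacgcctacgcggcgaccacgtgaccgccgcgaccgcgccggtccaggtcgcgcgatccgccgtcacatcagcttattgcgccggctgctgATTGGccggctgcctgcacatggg

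Windows from 250 bases before to 50 after the start were held for 16 of the 22 genes. A CCAAT box was found in all 16, against 11096 of 27025 genes with a window (41.1%), and the sterol regulatory element, searched as TCACNCCAC on both strands, in 1 of the 16, Hmgcs1, against 388 of 27025 (1.44%). Hmgcs1 carries both motifs in the stretch shown, Nsdhl has a pair of CCAAT boxes and Sc5d, which encodes lathosterol oxidase, has 1. A match is a run of letters and no more. The interactions of the 3 genes were 0.20, 0.29 and 0.15.

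Genes of protein synthesis and respiration leaned the other way. Of 50 tested cytosolic ribosomal protein genes 2 were positive and 8 were at an unadjusted p under 0.05 in the negative direction, where the share over all tested genes was 1.88%. Their median interaction was -0.14, made of -0.091 in lox/lox and 0.044 in Nex mice, but it was -0.0050 without surrogate variables, where 23 were positive (52.8% of all tested genes were) and 0 were at an unadjusted p under 0.05. That last median turned on Nex control mouse 52, since without it and without surrogate variables the value was -0.11, with 3 of 50 positive. Its mean log2 CPM of ribosomal protein genes was 7.52, the next highest mouse being at 7.24. With 5 surrogate variables the median without mouse 52 was -0.13, and over the refits it ran from -0.20 to -0.11. Rps28, a protein of the small subunit, stood at 36.8, 45.4 and 47.4 CPM in lox/lox control mice, 30.2, 38.1 and 41.7 in lox/lox ELS mice, 27.7, 43.1 and 64.1 in Nex control mice and 37.2, 41.8 and 52.2 in Nex ELS mice. Its ranges overlapped in both genotypes, and its interaction was -0.38 (SE 0.15, 95% interval -0.69 to -0.068) with and -0.23 without surrogate variables. Rpl5, a protein of the large subunit, was at -0.15 (SE 0.063, 95% interval -0.28 to -0.023) and -0.044. Many ribosomal protein genes have processed pseudogenes, so single values are uncertain.

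Nuclear genes of oxidative phosphorylation (43 tested) had a median of -0.064, with 3 positive and 2 at an unadjusted p under 0.05, both negative, where 1.88% of all tested genes were. Without surrogate variables it was -0.043 with 11 positive and 0 at an unadjusted p under 0.05, and -0.12 when mouse 52 was left out as well. Leaving out 1 mouse moved the median from -0.13 (without Nex control mouse 32) to -0.043 (without lox/lox ELS mouse 68). Ndufa5, a complex I subunit, was at -0.24 (SE 0.10, 95% interval -0.45 to -0.022), and Ndufa4, a subunit now placed in complex IV, at -0.15 (SE 0.069, 95% interval -0.30 to -0.0093). The 13 mitochondrially encoded genes had a median of -0.14 with and -0.18 without surrogate variables, and 12 of them were negative in either model. The complex I subunit mt-Nd3 was at -0.44 (SE 0.20, 95% interval -0.85 to -0.034) and mt-Co3, a complex IV subunit, at -0.34 (SE 0.20, 95% interval -0.75 to 0.076). Between mice the mitochondrial median moved from -0.27 (without Nex control mouse 32) to -0.073 (without Nex control mouse 54).

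Synaptic vesicle release genes had a weakly positive median in both models, while that of ionotropic glutamate receptor genes changed sign. Of 22 synaptic vesicle release genes, 18 were positive against 50.1% of all tested genes (median 0.073, and 0.038 without surrogate variables). The median was 0.0035 without lox/lox control mouse 74. Unc13b, the priming factor Munc13-2, was the 1 member at an unadjusted p under 0.05, at 0.26 (SE 0.088, 95% interval 0.075 to 0.44). Of all tested genes, 1.86% were at an unadjusted p under 0.05 in that direction. The SNARE gene Snap25 was at 0.10 (SE 0.060, 95% interval -0.025 to 0.22). Of 17 ionotropic glutamate receptor genes 14 were positive with a median of 0.052, where 50.1% of all tested genes were. Without surrogate variables 6 were positive, with a median of -0.063, where 52.8% of all tested genes were.

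Grik4, a kainate receptor subunit enriched in CA3, stood at 58.9, 98.1 and 106 CPM in lox/lox control mice, 77.3, 100.2 and 115 in lox/lox ELS mice, 67.3, 98.4 and 135 in Nex control mice and 83.5, 97.1 and 108 in Nex ELS mice. Its interaction was 0.24 (SE 0.072, 95% interval 0.093 to 0.39) and 0.089 without surrogate variables, and leaving out 1 mouse gave -0.030 to 0.31, the lowest without lox/lox control mouse 74. Grik5, another subunit of the high-affinity kainate receptors, was at 0.17 (SE 0.089, 95% interval -0.011 to 0.36). Markers of CA3 pyramidal neurons as a list of 10 had a median of 0.11 (0.10 without surrogate variables), with 7 positive and 3 at an unadjusted p under 0.05, namely Grik4, Bok and Iyd, all positive, where the share over all tested genes was 1.86%. Without surrogate variables 1 member was. Leaving out 1 mouse moved the median from -0.031, a change of sign, without lox/lox control mouse 74 to 0.15 without Nex ELS mouse 60.

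Bok, a Bcl-2 family member abundant in CA3, stood at 23.3, 61.5 and 80.0 CPM in lox/lox control mice, 43.0, 79.2 and 85.1 in lox/lox ELS mice, 43.7, 74 and 96.3 in Nex control mice and 53.0, 70.1 and 81.3 in Nex ELS mice. Lox/lox control mouse 44 had 23.3 CPM where the other lox/lox controls had 55.8 or more. ELS and control mice overlapped in both genotypes. The interaction of 0.29 (SE 0.10, 95% interval 0.092 to 0.49) ran from 0.020 to 0.37 when single mice were left out, the lowest value being the one without Nex control mouse 32. Iyd, iodotyrosine deiodinase, was at 0.81 (SE 0.29, 95% interval 0.20 to 1.42). The level of the CA3 list was itself lowest in mouse 44 within the lox/lox controls (4.93 against 5.66 or more, mean log2 CPM), and the part of CA3 content in these values was not tested.

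Wnt signalling genes, which include the Tcf/Lef factors, were divided evenly. Of 29 tested, 14 were positive with a median of -0.0095, and 3 were at an unadjusted p under 0.05, all negative, where 1.88% of all tested genes were. Without surrogate variables the median was 0.049, with 0 negative members and 1 positive member at an unadjusted p under 0.05. The 3 negative members were Fzd7, a Wnt receptor, at -0.43 (SE 0.16, 95% interval -0.77 to -0.092), its co-receptor Lrp6 at -0.13 (SE 0.061, 95% interval -0.26 to -0.0031), and the secreted inhibitor Sfrp1 at -0.36 (SE 0.17, 95% interval -0.71 to -0.0022).

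The medians of the thalamic, dentate granule neuron and CA1 lists differed between the models with and without surrogate variables. That of the CA3 list hardly did, though its members at an unadjusted p under 0.05 went from 3 to 1. Of the study's 5 hub genes, 3 are themselves thalamic markers. Plcb4, Plekhg1, Tcf7l2, Rab37 and Zic1 were chosen by the study from these same samples, so their direction is not independent evidence. Zic1, a zinc-finger factor strongly expressed in the thalamus and other midline tissue, stood at 6.81, 10.9 and 16 CPM in lox/lox control mice, 8.11, 21.6 and 46.4 in lox/lox ELS mice, 7.77, 14.7 and 32.2 in Nex control mice and 8.26, 14.0 and 38 in Nex ELS mice. Lox/lox ELS mice reached the highest values, yet all ranges overlapped. Its interaction was 0.43 (SE 0.34, 95% interval -0.30 to 1.15) with and 1.35 without surrogate variables, and the exact two-sided permutation test gave p = 0.0761 (adjusted 0.38).

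Tcf7l2, a Wnt effector and thalamic marker, stood at 5.25, 6.33 and 11.4 CPM in lox/lox control mice, 5.41, 12.5 and 36.1 in lox/lox ELS mice, 4.71, 10.3 and 20.05 in Nex control mice and 6.32, 11.9 and 22.4 in Nex ELS mice. Its interaction changed sign, from -0.062 (SE 0.26, 95% interval -0.61 to 0.49) to 0.998 without surrogate variables. Rab37, a Rab GTPase of secretion, went from 0.029 to 0.91, Plekhg1, a guanine nucleotide exchange factor, from 0.048 to 0.76 and Plcb4, a phospholipase C of thalamic and cerebellar neurons, from 0.14 to 0.50. The exact permutation p-values of these 4, adjusted over the 10 genes, were 0.429 each.

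The 14 tested thalamic markers, which include the hub genes Plekhg1, Tcf7l2 and Zic1, depended on the model in the same way. Their median interaction was 0.14 with 10 positive, and 0.97 with 14 of 14 positive and 5 at an unadjusted p under 0.05 without surrogate variables, all positive, where 1.39% of all tested genes were. With surrogate variables, leaving out 1 mouse moved it from 0.011 (without Nex control mouse 12) to 0.66 (without Nex control mouse 32). For the 5 hub genes the medians were 0.048 with and 0.91 without surrogate variables, and with them the median ran from -0.088 (without Nex ELS mouse 60) to 0.52 (without Nex control mouse 32), so its sign was not determined. Thalamic markers had a mean log2 CPM of 3.21, 3.45 and 4.01 in lox/lox controls and 3.43, 4.09 and 5.46 in lox/lox ELS mice. They were at 3.27, 3.87 and 4.67 in Nex controls and 3.37, 3.93 and 5.04 in Nex ELS mice. Rgs16, a regulator of G-protein signalling, went from 0.49 to 1.54, and the RNA-editing enzyme gene Adarb1 from 0.13 to 0.21. The part of thalamic tissue in the hub gene values was not tested.

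Dentate granule neuron markers reversed between the models. With surrogate variables 10 of 12 were negative (median -0.36), and without them 11 were positive (median 0.29). Prox1, the homeobox factor that specifies granule cells, stood at 71.7, 103 and 139.6 CPM in lox/lox control mice, 64, 117 and 278 in lox/lox ELS mice, 34.1, 54.9 and 196 in Nex control mice and 48.7, 50.5 and 128 in Nex ELS mice. Its interaction was -0.36 (SE 0.15, 95% interval -0.68 to -0.040) and then 0.46, and Npnt, an integrin ligand of the extracellular matrix, went from -0.55 (SE 0.19, 95% interval -0.95 to -0.14) to 0.43.

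CA1 markers (10 tested) had a median of -0.069 with and -0.39 without surrogate variables, and 0 were at an unadjusted p under 0.05 in either. Leaving out Nex control mouse 32 put the first value at -0.36. Fibcd1, a CA1-enriched acetyl-recognition receptor gene, was at -0.60 (SE 0.46, 95% interval -1.58 to 0.38) and Mpped1, a metallophosphoesterase, at -0.24 (SE 0.26, 95% interval -0.81 to 0.32). Of 15 choroid plexus genes the 8 with enough counts to be tested were all negative with a median of -0.88, with 0 at an unadjusted p under 0.05. They were all negative without surrogate variables too, but with a median of -0.40, and of -0.21 when mouse 52 was left out as well. The ELS responses behind it changed more, from medians of 0.089 in lox/lox and 0.99 in Nex mice to -1.07 and -0.52 without surrogate variables. Clic6, a chloride channel family member, was at -1.32 (SE 0.63, 95% interval -2.66 to 0.017) and the tight junction gene Cldn2 at -0.80 (SE 0.40, 95% interval -1.62 to 0.029), intervals that span several fold. Clic6 passed the count filter only through lox/lox controls (11 to 1827 counts), with lows of 7 in lox/lox ELS, 1 in Nex control and 7 in Nex ELS mice. Lox/lox controls also had the highest mean level of the list (mean log2 CPM 4.58, against 3.49, 2.95 and 3.26 in those groups). Selection through that group favours a negative interaction, so the shared sign of the 8 genes is a description only. Of the oligodendrocyte lineage genes, whose median ran from -0.26 to 0.12 when single mice were left out, Cspg4, the precursor proteoglycan NG2, was at 0.22 (SE 0.13, 95% interval -0.062 to 0.50) and the myelin gene Opalin at -0.36 (SE 0.23, 95% interval -0.84 to 0.11).

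**Figure D5:**
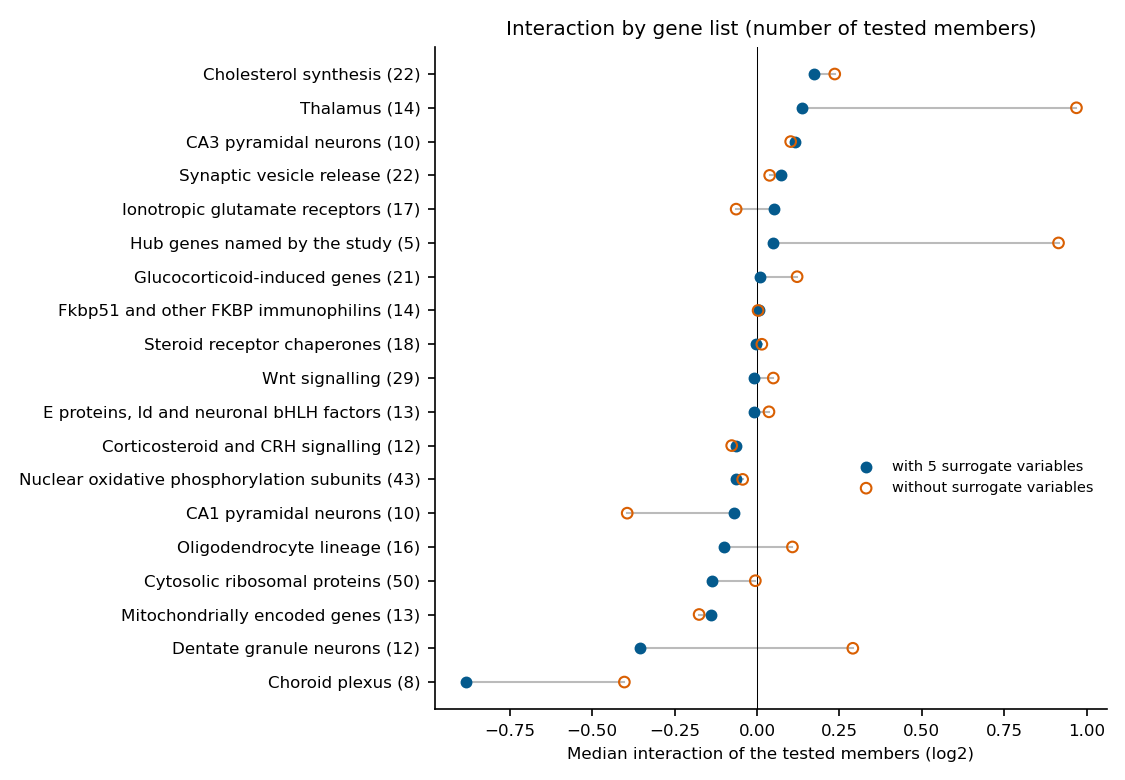
Median interaction (log2, x axis) of the tested members of the 19 described gene lists, with filled points for the model with 5 surrogate variables and open points for the model without them. Cholesterol synthesis is positive in both models, mitochondrially encoded genes are negative in both, and dentate granule neuron markers change side.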

How the data were processed

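Hippocampal mRNA of 24 female mice was sequenced, 6 per group, the groups being taken from the sample labels. The deposited values are raw counts of reads per gene, made by the authors. Per the labels and the study's methods, reads had been filtered, aligned with HISAT2 2.0.5 and counted with featureCounts 1.5.0-p3; genome build, annotation and strandedness are not given in the sources used here. Symbols were matched to 46488 of 46983 gene identifiers through GENCODE vM21. No per-sample column was left unused.

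Genes that reached 10 counts in all mice of some group were tested with edgeR 4.0.16 (quasi-likelihood, robust, TMM, Benjamini-Hochberg adjustment, rate 0.02) in a model with 4 group means and 5 surrogate variables from sva 3.50.0, in R 4.3.3. The surrogate variables were rounded to 6 decimals. The study used DESeq2, run here (1.42.0) as an alternative. Two-sided exact permutation tests (924 regroupings within each genotype) covered 10 genes. The model was also run on simulated counts with changes in lox/lox ELS mice only and no hidden source of variation. That simulation therefore does not test how the 5 surrogate variables behave in these data. Replicates are separate mice. The study assigned whole litters to ELS or control, and mice of 1 litter would not be independent. Because litters are not given, the standard errors, intervals and permutation p-values take each mouse as independent. Counts bound precision by counting error and by 6 mice a group.

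Named genes were those past the rate, the 8 per direction with the smallest p at a mean of at least 1 CPM with an ordinary symbol (1 of the negative ones is not reported here), the 4 per direction at an unadjusted p under 0.05 for ELS in both genotypes with the largest smaller response, 10 genes of the study's interest, and the 2 leading members of each of 19 described lists of 42. The gene lists and members were chosen with earlier results of these data known. Fdft1, Sqle, Nsdhl, Ebp, Hmgcs1, Sc5d, Iyd and Sfrp1 were named after their values were seen. Alternatives were another scaling, 2 filters, other covariates, DESeq2, 1 to 3 surrogate variables and leaving out mice. Promoter windows came from RefSeq (GRCm38.p6).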

Additional observations from a re-analysis of the deposited data

Results flagged for a closer look

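The values below were picked out because the highest or lowest mouse of a group of 6 lay far from the other 5, with a gap to its nearest neighbour, as a share of the group's range, above Dixon's 95% critical value. Of 332 groups looked at, 17 did so, and chance alone gives about 1 in 20 groups, here 16.6, so the number of them is what chance gives.

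Nex control mouse 52 had the highest mean log2 CPM of cholesterol synthesis genes in its group (5.91, next 5.34), the highest Upf3a (45 CPM, next 39.5) and the lowest Lrp6 (45.8 CPM, next 63.0). Nex ELS mouse 66 was highest for the hub genes Plekhg1 (52.7 CPM, next 22.5) and Rab37 (15.6 CPM, next 6.55) and for the mean log2 CPM of Wnt signalling genes (4.01, next 3.91). Nex ELS mouse 60 was lowest for cholesterol synthesis (5.10, next 5.28) and highest for Npnt (23.7 CPM, next 12.7). Lox/lox control mouse 44 was lowest for the CA3 marker Bok (23.3 CPM, next 55.8) and for the mean log2 CPM of CA3 markers (4.93, next 5.66). Lox/lox ELS mouse 8 had the lowest Fibcd1, a CA1 marker (10.7 CPM, next 87.2).

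The other values came from mice that stood out once. Crhr1 was lowest in lox/lox ELS mouse 72 (5.13 CPM, next 8.71), Pcdha6 in lox/lox control mouse 74 (1.32 CPM, next 2.06), Nr3c2 was highest in Nex ELS mouse 58 (217 CPM, next 199) and Cspg4 in Nex control mouse 32 (21.5 CPM, next 18). Corticosteroid and CRH signalling genes had their highest mean log2 CPM in Nex control mouse 42 (5.21, next 5.08), and glucocorticoid-induced genes in Nex ELS mouse 62 (4.62, next 4.43).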

How the results depend on the processing

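No paired analysis was possible because the 4 groups share no mouse numbers. Every alternative model that gave an interaction and the 24 refits that left out 1 mouse called 0 genes for the interaction at a false discovery rate of 0.02, and a rate of 0.05 gave 0 as well. The number at an unadjusted p under 0.05 was 328 without surrogate variables, 396 with 1 of them, 1391 without a filter and 373 without mouse 52 and surrogate variables, and 426 (without Nex control mouse 12) to 1055 (without Nex control mouse 32) over the refits. For ELS in lox/lox mice it was 441, 433 and 1584 without surrogate variables, with regional marker scores and without a filter, and 578 to 1221 over the refits, the highest without lox/lox control mouse 44, and DESeq2 called 1 gene. For ELS in Nex mice it was 898 with regional marker scores and 1554 without a filter, and 0 to 1 genes were called over the refits, the 1 being a gene without a symbol when lox/lox ELS mouse 68 was left out. The models without mice 8, 12 and 52, without mouse 52 and surrogate variables, and with DESeq2 size factors in the permutation test were chosen after seeing the data.

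Named genes whose interaction changed sign were the following (log2), and the cause was not tested. Without surrogate variables it was Prox1 0.46, Fkbp5 0.18, Tcf7l2 0.998, Fkbp4 0.035, Npnt 0.43, Marcksl1 0.13 and Nat8f5 0.25. With regional marker scores as covariates it was Dnajb1 0.012, Prox1 0.021, Adarb1 -0.018, Rab37 -0.20, Fkbp5 0.32, Snap25 -0.045, Plcb4 -0.00062, Plekhg1 -0.022 and Nat8f5 0.24. With 1 surrogate variable it was Dnajb1 0.012, Dbndd2 0.042, Fkbp5 0.057, Tcf7l2 1.08, Fkbp4 0.020 and Nat8f5 0.14. With 2 it was Prox1 0.0064, Dbndd2 0.056, Fkbp5 0.055, Tcf7l2 1.09, Plxnd1 -0.022, Car14 0.0034 and Nat8f5 0.13. With 3 it was Tcf7l2 0.31, Snap25 -0.033 and Nat8f5 0.032. Under the filterByExpr filter it was Tcf7l2 0.19, Snap25 -0.030 and Nat8f5 0.017. Without a filter it was Rab37 -0.044. In DESeq2 it was Rab37 -0.00077. Without mice 8, 12 and 52 it was Rab37 -0.18, Plcb4 -0.031, Plekhg1 -0.16 and Ass1 -0.024. Without mouse 52 and surrogate variables it was Prox1 0.48, Dbndd2 0.028, Fkbp5 0.17, Tcf7l2 1.04, Npnt 0.40, Marcksl1 0.045 and Nat8f5 0.18. Leaving out 1 mouse at a time changed the sign of some, with ranges of Dnajb1 -0.092 to 0.0047, Rab37 -0.19 to 0.53, Fkbp5 -0.16 to 0.14, Tcf7l2 -0.25 to 0.55, Snap25 -0.073 to 0.12, Hsph1 -0.0040 to 0.12, Grik4 -0.030 to 0.31, Plekhg1 -0.088 to 0.51, Ass1 -0.11 to 0.12 and Nat8f5 -0.25 to 0.16. Genes below 10 CPM, with intervals several times wider than those above 100 CPM, limit what could be seen, and the unstated strand and annotation limit what a count means for overlapping genes.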

Other observations

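Several gene lists outside the comparisons above are given here without a test, and not all of their medians were close to 0. Immune and matrix genes had positive medians, 0.12 for 18 interferon and MHC class I genes (11 positive) and 0.13 for 14 genes of the extracellular matrix and perineuronal net (10 positive). Each list had 1 member at an unadjusted p under 0.05, in the positive direction, where 1.86% of all tested genes were. The interferon and MHC median changed sign among the refits that left out 1 mouse (-0.18 to 0.21). Genes of DNA methylation, the enzymes that write and remove cytosine methylation and their readers, had 13 of 16 positive, against 50.1% of all tested genes. Their median was 0.039, and it was positive in every refit, from 0.011 to 0.070.

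Inhibitory and activity-dependent genes had small negative medians. Of 12 GABA-A receptor subunit genes 2 were positive (median -0.025, and -0.090 without surrogate variables). Of 22 immediate early genes 7 were (median -0.036, and -0.10 without them), against 50.1% of all tested genes. With surrogate variables neither list had a member at an unadjusted p under 0.05. Markers of ventral hippocampus, 1 of 10 positive, had a median of -0.22, with -0.17 without surrogate variables and -0.32 to 0.15 over the refits. Microglial (12 genes) and astrocyte markers (12 genes) had medians of 0.031 and 0.076, 8 positive in each.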
